A study of Caenorhabditis elegans with 24 samples.

Results

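The 7 libraries described here are mRNA-seq libraries of body wall muscle cells sorted from young adult *Caenorhabditis elegans* that have no functional DAF-16: 3 from *daf-16(lf); daf-2(lf)* animals (hereafter the double mutant) and 4 from *daf-16(lf)* animals, of 24 libraries in the series. They were chosen by the genotype and cell type in their labels, so that the comparison shows what changed with *daf-2* and with rearing temperature where DAF-16 was absent. All strains carried the same GFP transgene in body wall muscle, whose promoter is not given in the sources used here. Double mutant animals carried the temperature-sensitive *daf-2(e1370)* allele. They were kept at 15 °C in larval life and spent the last 8 h at the warm, restrictive temperature. The study's methods place the shift at L4, whereas its results place it after the last larval molt. The stage at the shift is therefore uncertain. *daf-16(lf)* animals, with wild-type *daf-2*, were at the warm temperature throughout. For comparison below, *daf-2(lf)* animals were reared like the double mutant and wild-type animals like *daf-16(lf)*. The double mutant and *daf-16(lf)* carried the same *daf-16* loss of function (the study names the *mu86* deletion), and all animals were harvested as young adults. Dissociated cells that were GFP positive and excluded propidium iodide were collected by FACS, and libraries of all cells from the same strains were collected without the GFP gate. The *daf-2* genotype and the rearing temperature therefore changed together, and their effects cannot be told apart. The labels also name 2 library kits, a stranded mRNA kit for single-end reads and a whole-transcript amplification kit for paired-end reads, without saying which library used which, so the part of the kit was not tested.

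The insulin/IGF-1 signaling pathway (IIS) starts when insulin-like peptides bind the DAF-2 receptor, which acts through the phosphoinositide kinase AGE-1 and the AKT kinases. AKT phosphorylates the FOXO transcription factor DAF-16 and keeps it in the cytosol. When DAF-2 activity falls, DAF-16 enters the nucleus and changes transcription, which lengthens life and promotes dauer formation. DAF-2 also acts on outputs other than DAF-16, among them translation, proteostasis and the transcription factor SKN-1, and a strain without DAF-16 removes the FOXO output.

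The *daf-16* transcripts were set beside the labels. Of 14 annotated *daf-16* transcripts, 5 were at 0 in all 7 libraries and above 0 in muscle cells with DAF-16. They were picked by this rule, so their split between these muscle libraries is no check of the labels. In all cells of the double mutant and *daf-16(lf)*, which the rule did not use, they were also at 0. The same 5 summed to 38.1, 22.1 and 19.8 TPM (abundance corrected for transcript length and scaled to a fixed sum per library) in muscle cells of *daf-2(lf)* and to between 2.58 and 3.89 TPM in wild-type muscle cells. The other *daf-16* transcripts summed to 11.8, 19 and 28.7 TPM in the double mutant, against 3.20, 3.42, 3.76 and 8.95 TPM in *daf-16(lf)*, without overlap.

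The libraries differed as wholes. Genes above 0 numbered 15323 to 17272 in the double mutant and 14320 to 16372 in *daf-16(lf)*, and TPM carries no other record of depth. Ribosomal protein genes took 45.1, 38.6 and 33.6% of TPM in the double mutant, against 9.46, 10.2, 9.37 and 18% in *daf-16(lf)*. Genes of the mitochondrial genome took 0.463, 1.27 and 1.42%, against 3.12, 4.03, 3.82 and 3.77%. Since TPM values of a library sum to a fixed total, a higher share of ribosomal proteins lowers the value of every other gene. Replicate 1 of the double mutant stood apart from its group (its median deviation was -1.47 on the log2 scale over genes of at least 5000 bases), and replicate 4 of *daf-16(lf)* had the lowest correlation with another library of its group (r = 0.872). Counts of calls over all genes and over gene lists in this comparison are also given with both of these left out where that moved them by 1.5 times or more. In bulk samples of sorted cells, fewer cells of a type and less RNA per cell cannot be told apart.

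Markers of body wall muscle were abundant in all 7 libraries. The 10 markers summed to 32295, 33119 and 37607 TPM in the double mutant, against 104810, 97953, 103300 and 53733 TPM in *daf-16(lf)* (two-sided p = 0.0571 by exact permutation of the 35 possible groupings, the smallest such a design can give). Of these 10 markers 3 were called higher and 5 lower, and the same exact test on their mean log2(TPM + 1) gave p = 0.343. Markers of other tissues were low by comparison: the 8 intestinal markers summed to between 114 and 312 TPM in the double mutant and between 43.1 and 344 TPM in *daf-16(lf)*, with the intestinal esterase *ges-1* at 0.264, 0.188 and 0.745 TPM against 0.323, 1.13, 1.64 and 2.16 TPM. Sperm markers, mostly major sperm proteins, summed to 308, 342 and 2724 TPM in the double mutant, against 23.4, 50.5, 122.3 and 488 TPM in *daf-16(lf)*. Of 12 germline markers, 7 were called higher and 1 lower, and of 10 neuronal markers 3 were called higher, among them synaptobrevin *snb-1* (91.0, 96.04 and 124 TPM in the double mutant, against 19.7, 24.4, 19.5 and 48.6 TPM in *daf-16(lf)*). Of 38 sperm markers tested 12 were called higher, and 27 without the 2 libraries that stood apart. The neuronal markers called higher were then 7. Their part in the results was not tested.

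**Figure D1:**
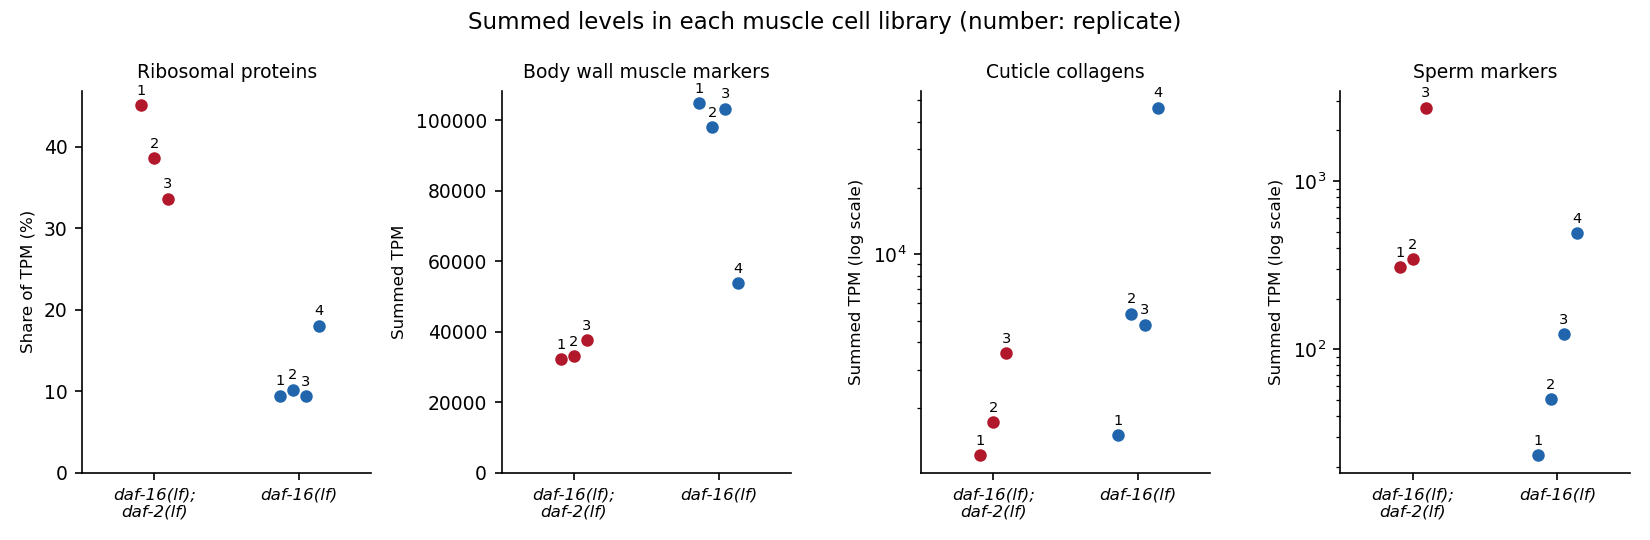
Summed levels in each muscle cell library, the double mutant on the left and *daf-16(lf)* on the right of each panel, with the replicate number beside each point. The share of TPM in ribosomal proteins (%) was at least 33.6% in all 3 double mutant libraries and at most 18% in *daf-16(lf)*, the body wall muscle markers (TPM) were lower in all 3, and replicate 4 of *daf-16(lf)* carried 46225 TPM of cuticle collagens (log scale) and replicate 3 of the double mutant 2724 TPM of sperm markers (log scale).

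Loss of *daf-2* function without DAF-16, together with the temperature shift, came with many differences in transcript abundance, and more of them were higher than lower. Of 14714 genes tested, 4725 (32.1%) differed at an adjusted p under 0.05 (limma on log2(TPM + 1), Benjamini-Hochberg), 3456 (23.5%) higher and 1269 (8.62%) lower in the double mutant. In 4819 genes (32.8%) the 3 double mutant libraries lay wholly above (3485) or wholly below (1334) the 4 *daf-16(lf)* libraries. The split between directions depended on the scaling: 73.1% of calls were higher in TPM as deposited, 54.2% after median-of-ratios scaling, 53.7% after quantile normalization, 84.8% after rescaling without ribosomal protein and mitochondrial genes, and 85.3% as shares of estimated reads. The median log2 difference over all genes was 0.33 in TPM and moved between 0.07 and 0.64 under these scalings. Without the 2 libraries that stood apart, 5846 genes were called higher and 940 lower. Under all 4 alternative scalings and without the 2 libraries, 2348 genes stayed higher and 767 stayed lower, and below a call is described as held when it is among them. Ribosomal protein and mitochondrial genes were not tested in the scaling that removes them, so for these a held call rests on the other 3 scalings and the fit without the 2 libraries. Counts within the gene lists below stand beside the shares over all genes, 23.5% higher and 8.62% lower.

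The greatest differences were mostly in short or unnamed loci. *ubc-8*, annotated as a ubiquitin-conjugating enzyme gene (chromosome IV, 2704741 to 2707238, WBcel235), had 64.0, 27.4 and 84.8 TPM in the double mutant, against 0.454, 0.243, 0.228 and 0.139 TPM in *daf-16(lf)* (log2 difference 5.42 ± 0.38 SE, limma adjusted p = 1.4e-09). *cpg-8*, named as a chondroitin proteoglycan gene, had 1525, 125 and 488 TPM against 15.2, 9.08, 7.80 and 23.5 TPM (log2 difference 5.05 ± 0.65 SE, limma adjusted p = 4.3e-06). Both were far above the *daf-16(lf)* libraries in every double mutant library, although *cpg-8* varied widely among them. 8 of the 15 largest increases, short genes of 153 to 389 bases that in most cases overlap another gene (among them *nola-3*, *C53H9.4* and *R12B2.13*), were listed at 0 in all 4 *daf-16(lf)* libraries, so that no fold can be given. In the other direction, *F46A8.7*, *F56A4.3*, *nspc-15*, *W03G11.3* and *ZK380.t2* were listed at 0 in all 3 double mutant libraries. The mitochondrial gene *ND6*, which encodes a subunit of respiratory complex I, had 234.8, 46.2 and 48.5 TPM in the double mutant, against 15214, 19166, 17817 and 16188 TPM in *daf-16(lf)* (log2 difference -7.70 ± 0.60 SE, limma adjusted p = 6.0e-09), the most negative log2 difference among genes that averaged at least 10 TPM in the higher group and did not overlap. It overlaps a neighbouring mitochondrial gene. Genes that overlap another, among them *ND6*, *act-4*, *clik-1*, *mlc-2*, *unc-60*, *unc-89*, *cyc-1*, *idha-1*, *hsp-70*, *hsp-90*, *gst-4*, *fipr-2* and *R119.3*, may share reads with it, since the strand setting of the counting is not given, and their values are uncertain to that extent.

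Sarcomere genes moved in both directions, and the most abundant ones were lower in the double mutant. Among 12 thick filament genes 3 were called higher and 6 lower (median log2 difference -0.62), among 17 thin filament genes 7 were higher and 4 lower (median 0.58), against 0.33 over all genes. Without the 2 libraries that stood apart, 5 thick filament genes were higher and 6 lower. *pat-10*, the troponin C of body wall muscle and the most abundant gene that fell, had 13316, 17242 and 18905 TPM in the double mutant, against 119230, 117430, 116490 and 76075 TPM in *daf-16(lf)* (log2 difference -2.69 ± 0.16 SE, limma adjusted p = 1.4e-10). Actin *act-4* (chromosome X, 4960621 to 4964413) had 4141, 5478 and 6690 TPM, against 67226, 70964, 72814 and 31670 TPM (log2 difference -3.43 ± 0.27 SE, limma adjusted p = 5.9e-09). In both genes every double mutant library was below every *daf-16(lf)* library by a wide gap. Tropomyosin *lev-11* had 5632, 5962 and 7274 TPM, against 24816, 24825, 24602 and 12401 TPM (log2 difference -1.74 ± 0.24 SE, limma adjusted p = 9.9e-06). The calponin-like gene *clik-1* had 3604, 4929 and 4847 TPM, against 34963, 32545, 32686 and 15819 TPM (log2 difference -2.65 ± 0.24 SE, limma adjusted p = 5.1e-08). Among these 4 genes replicate 4 of *daf-16(lf)* was the lowest of its group and still above the double mutant.

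Thick filament genes showed the same division with a narrower gap. The major myosin heavy chain *unc-54* had 2852, 3430 and 3752 TPM in the double mutant, against 16752, 11697, 16181 and 3883 TPM in *daf-16(lf)* (log2 difference -1.66 ± 0.48 SE, limma adjusted p = 0.011). Paramyosin *unc-15*, which forms the core of the thick filament, had 2433, 3208 and 4192 TPM, against 21981, 17476, 22519 and 5858 TPM (log2 difference -2.23 ± 0.41 SE, limma adjusted p = 0.00026). The obscurin-like M-line protein gene *unc-89* had 15.4, 53.8 and 76.1 TPM, against 248, 158, 269 and 82.003 TPM (log2 difference -2.07 ± 0.51 SE, limma adjusted p = 0.0034). The libraries did not overlap in any of the 3, but replicate 4 of *daf-16(lf)* lay close to the double mutant and well below the other 3 *daf-16(lf)* libraries. The other myosin heavy chain of body wall muscle, *myo-3*, had 18.9, 332 and 332 TPM, against 153, 125, 199 and 164 TPM, and was not called (log2 difference -0.29 ± 0.66 SE, limma adjusted p = 0.77). Without replicate 1 of the double mutant its sign turned, to 1.06. Twitchin *unc-22*, the giant kinase of the thick filament, was not called either, at 1.83, 28.95 and 33.5 TPM against 10.1, 6.41, 14.5 and 14.5 TPM, but was called higher without that library (1.44). In both, replicate 1 of the double mutant was the lowest library of all 7 and the other double mutant libraries were the highest.

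Several sarcomere genes rose, among them regulators of assembly. The myosin regulatory light chain *mlc-2* had 10798, 9959 and 11025 TPM in the double mutant, against 1785, 1785, 1722 and 3280 TPM in *daf-16(lf)* (log2 difference 2.36 ± 0.23 SE, limma adjusted p = 1.2e-07). The near-identical *mlc-1* had 4179, 4559 and 5335 TPM, against 11599, 10612, 10222 and 5299 TPM, and reads cannot be divided between them with confidence: their sum was 14977, 14518 and 16360 TPM in the double mutant, against 13384, 12398, 11945 and 8579 TPM in *daf-16(lf)*. Actins have the same limit: *act-1* was called higher (log2 difference 1.21, limma adjusted p = 0.00015), whereas *act-4* was called lower. The sum over *act-1* to *act-4* was 15591, 22071 and 22341 TPM, against 74060, 78386, 80153 and 41814 TPM (log2 difference -1.75, not tested). The actin depolymerizing factor *unc-60* had 1075, 1514 and 1591 TPM, against 209, 201, 205 and 330 TPM (log2 difference 2.57 ± 0.22 SE, limma adjusted p = 1.6e-08). Troponin I *unc-27* had 4454, 4676 and 4601 TPM, against 1383, 1394, 1336 and 2708 TPM (log2 difference 1.49 ± 0.22 SE, limma adjusted p = 2.3e-05). The myosin chaperone *unc-45* had 31.4, 81.3 and 52.4 TPM, against 17.7, 13.3, 18.6 and 18.2 TPM (log2 difference 1.55 ± 0.34 SE, limma adjusted p = 0.0013), and the M-line gene *unc-96* had a log2 difference of 1.83 (adjusted p = 1.2e-05). In *unc-60*, *unc-27* and *unc-45* all double mutant libraries were above all *daf-16(lf)* libraries, and the 3 calls held. Of the 7 thin filament genes called higher, 3 held, and after median-of-ratios scaling or quantile normalization 4 thin filament genes were higher and 5 lower.

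**Figure D2:**
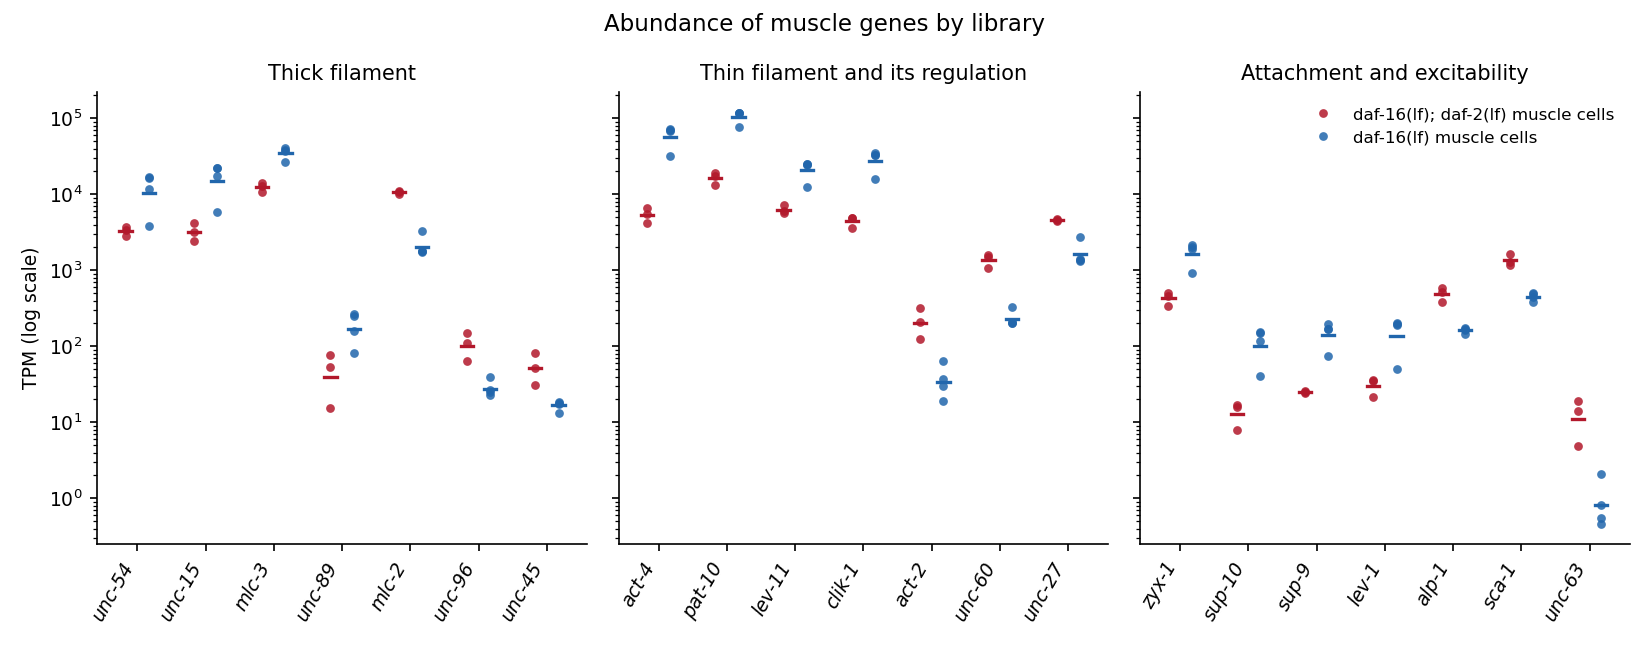
Abundance (TPM, log scale) of 21 muscle genes in each library of the double mutant (red, left) and *daf-16(lf)* (blue, right). Points are libraries and bars are geometric means. *pat-10* lies lower in the double mutant by a log2 difference of -2.69 and *unc-60* higher by 2.57. Reads of *act-4* (-3.43) and *mlc-2* (2.36) cannot be divided with confidence from those of near-identical genes.

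Genes that attach the sarcomere to the membrane mostly rose or did not pass the test. Of 16, 7 were called higher and 1 lower (median 0.27), and 3 of the 7 held. The parvin-like *pat-6*, part of the integrin complex of dense bodies, had 152, 220 and 195 TPM in the double mutant, against 68.2, 60.3, 64.9 and 80.9 TPM in *daf-16(lf)* (log2 difference 1.44 ± 0.26 SE, limma adjusted p = 0.00020). The LIM protein gene *alp-1* had 381, 519 and 581 TPM, against 162, 146, 169 and 172 TPM (log2 difference 1.58 ± 0.19 SE, limma adjusted p = 1.6e-06). Zyxin *zyx-1*, the gene that fell, had 344, 458 and 499 TPM, against 2180, 1887, 2042 and 912 TPM (log2 difference -1.95 ± 0.26 SE, limma adjusted p = 7.4e-06). None of the 3 overlapped between the groups. Beta integrin *pat-3* (31.7, 160 and 132 TPM against 86.7, 60.2, 85.1 and 75.8 TPM) and vinculin *deb-1* (65.9, 288 and 307 TPM against 181, 168, 192 and 298 TPM) overlapped and were not called. The difference of *deb-1* was -0.18 in TPM but turned positive without the 2 libraries that stood apart (0.72), and *pat-3* was called higher without replicate 1 of the double mutant (0.92). After median-of-ratios scaling 3 genes of this list were higher and 4 lower, and without the 2 libraries that stood apart 11 were higher and 1 lower.

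Among 29 genes of membrane excitability and calcium handling, 14 were called higher and 6 lower (median 0.69), and after median-of-ratios scaling 7 were higher and 7 lower. The genes that fell included a potassium channel and its partner. *sup-9*, a potassium leak channel of muscle (chromosome II, 2684669 to 2687027), had 25.6, 24.8 and 24.3 TPM in the double mutant, against 194, 169, 167 and 74.7 TPM in *daf-16(lf)* (log2 difference -2.47 ± 0.29 SE, limma adjusted p = 1.4e-06). *sup-10*, which encodes a subunit of the same channel, had 7.90, 15.9 and 16.8 TPM, against 149.97, 118, 152 and 40.2 TPM (log2 difference -2.89 ± 0.40 SE, limma adjusted p = 9.3e-06). The third gene of that complex, *unc-93*, had 6.59, 15.5 and 19.4 TPM, against 5.83, 6.46, 6.77 and 7.04 TPM, and was not called (log2 difference 0.86, adjusted p = 0.085), though it was without replicate 1 of the double mutant (1.29). The channel genes were thus lower in every double mutant library, while *unc-93* overlapped.

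The subunits of the levamisole-sensitive acetylcholine receptor, which receives motor neuron input at the muscle membrane, did not move together. *lev-1* had 21.8, 34.7 and 36.2 TPM in the double mutant, against 198, 189, 199.9 and 49.6 TPM in *daf-16(lf)* (log2 difference -2.17 ± 0.43 SE, limma adjusted p = 0.00048). *unc-38* had 1.94, 10.6 and 11.6 TPM, against 46.5, 33.1, 44.5 and 12.5 TPM (log2 difference -2.07 ± 0.54 SE, limma adjusted p = 0.0058). *unc-63*, another alpha subunit, went the other way at 4.94, 14.05 and 19.1 TPM, against 0.823, 0.462, 0.549 and 2.098 TPM (log2 difference 2.68 ± 0.35 SE, limma adjusted p = 5.3e-06). None of the 3 overlapped and all 3 calls held, whereas the call of *unc-29* (log2 difference 0.94, adjusted p = 0.049) was lost after median-of-ratios scaling and quantile normalization and without any one library except double mutant replicate 1 (0.75 to 1.00). Calcium stores showed increases: the sarcoplasmic reticulum pump *sca-1* had 1304, 1194 and 1625 TPM, against 490, 382, 440 and 499 TPM (log2 difference 1.59 ± 0.21 SE, limma adjusted p = 5.4e-06), and the sodium-calcium exchanger *ncx-2* 146, 97.01 and 96.7 TPM, against 22.03, 20.2, 21.98 and 31.4 TPM (log2 difference 2.19 ± 0.32 SE, limma adjusted p = 2.1e-05). The ryanodine receptor *unc-68* had 0.958, 15.98 and 21.7 TPM, against 12.5, 7.24, 14.9 and 15.8 TPM, and was not called.

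Basement membrane genes, which muscle secretes in large part, were divided: of 21, 7 rose and 5 fell (median 0.07), and after median-of-ratios scaling 4 were higher and 7 lower (median -0.09). Laminin beta *lam-1* had 20.7, 97.8 and 65.2 TPM in the double mutant, against 8.79, 3.57, 8.004 and 9.11 TPM in *daf-16(lf)* (log2 difference 2.71 ± 0.56 SE, limma adjusted p = 0.00073), and laminin gamma *lam-2* 9.02, 82.3 and 60.9 TPM, against 3.75, 2.67, 4.48 and 8.40 TPM (log2 difference 2.77 ± 0.56 SE, limma adjusted p = 0.00067). SPARC *ost-1*, a collagen-binding protein of the basement membrane, had 2977, 3114 and 2855 TPM, against 11840, 10660, 10762 and 6336 TPM (log2 difference -1.69 ± 0.22 SE, limma adjusted p = 3.7e-06). The collagen-modifying disulfide isomerase *pdi-2* had 145, 178 and 93.8 TPM, against 790, 823, 880 and 1034 TPM (log2 difference -2.70 ± 0.27 SE, limma adjusted p = 1.9e-07). All 4 separated the groups. Among 10 regulators of muscle identity, 3 rose and 1 fell, against 5 and 1 without the 2 libraries that stood apart. The SRF homolog *unc-120* had 14.6, 91.8 and 87.7 TPM, against 18.1, 16.6, 19.03 and 24.8 TPM (log2 difference 1.31 ± 0.44 SE, limma adjusted p = 0.028), with replicate 1 of the double mutant below the whole *daf-16(lf)* range and the other 2 above it. That call was lost without any one of double mutant replicates 2 and 3 and *daf-16(lf)* replicates 1, 2 and 3 (0.87 to 1.297). The T-box gene *tbx-2* had 3.14, 9.09 and 13.9 TPM, against 56.7, 40.4, 49.5 and 18.8 TPM (log2 difference -2.203 ± 0.39 SE, limma adjusted p = 0.00018), below it in every library. The MyoD homolog *hlh-1* was called higher (log2 difference 0.65, adjusted p = 0.038), a call lost after median-of-ratios scaling and quantile normalization and without any one of double mutant replicates 2 and 3 and *daf-16(lf)* replicates 2, 3 and 4 (0.575 to 0.66).

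Genes of the insulin pathway itself rose in part, the receptor and AKT kinases among them. Of 19 genes of insulin/IGF-1 signaling, 9 were called higher and 1 lower (median 0.70), and 8 of the 9 held. The mutated receptor gene *daf-2* had 1.597, 5.79 and 5.80 TPM in the double mutant, against 0.593, 0.625, 0.886 and 1.74 TPM in *daf-16(lf)* (log2 difference 1.37 ± 0.36 SE, limma adjusted p = 0.0056), with 1 double mutant library inside the *daf-16(lf)* range. The kinase *akt-1* had 7.82, 19.6 and 23.9 TPM, against 5.26, 3.67, 4.70 and 6.08 TPM (log2 difference 1.498 ± 0.48 SE, limma adjusted p = 0.020). The related *akt-2* had 5.67, 6.19 and 9.32 TPM, against 1.75, 1.62, 1.35 and 1.29 TPM (log2 difference 1.67 ± 0.30 SE, limma adjusted p = 0.00018). Both kinases were above *daf-16(lf)* in all 3 libraries, but the call of *akt-1* was lost without double mutant replicate 2 (1.34) or 3 (1.202) or *daf-16(lf)* replicate 2 (1.39). *eak-7*, which acts beside AKT to restrain DAF-16, was the gene that fell, at 11.5, 16.99 and 18.9 TPM against 60.03, 44.6, 38.8 and 29.1 TPM (log2 difference -1.38 ± 0.24 SE, limma adjusted p = 0.00016). The kinase *age-1* (0.726, 3.02 and 3.36 TPM against 1.57, 1.27, 1.87 and 2.18 TPM) was not called (adjusted p = 0.67).

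Of 31 insulin-like peptide genes tested (40 in the table), 3 rose and 4 fell (median -0.17, turning to 0.02 after rescaling without ribosomal protein and mitochondrial genes and to 0.10 without the 2 libraries that stood apart). *ins-27* had 1210, 934 and 576 TPM in the double mutant, against 236, 224, 203 and 359 TPM in *daf-16(lf)* (log2 difference 1.80 ± 0.30 SE, limma adjusted p = 9.8e-05). *ins-30* had 0.167, 0.938 and 1.404 TPM, against 3.595, 11.4, 10.8 and 10.3 TPM (log2 difference -2.41 ± 0.37 SE, limma adjusted p = 3.4e-05), and *ins-33* 1.11, 0.692 and 1.17 TPM, against 3.29, 14.9, 12.4 and 74.0 TPM (log2 difference -3.03 ± 0.66 SE, limma adjusted p = 0.0012). The groups did not overlap in these 3 genes, and for *ins-33* replicate 4 of *daf-16(lf)* was far above the rest. Among 20 genes of TGF-beta and dauer hormone signaling, the other dauer pathways, 6 rose and 1 fell (median 0.58). The receptor *daf-4* had 25.1, 20.7 and 36.9 TPM, against 5.12, 5.71, 6.64 and 7.29 TPM (log2 difference 1.96 ± 0.42 SE, limma adjusted p = 0.0010). The nuclear receptor cofactor *din-1* had 28.6, 40.8 and 58.4 TPM, against 205, 167, 174 and 91.4 TPM (log2 difference -1.88 ± 0.28 SE, limma adjusted p = 2.5e-05). After median-of-ratios scaling 3 genes of this list were higher and 4 lower, and without the 2 libraries that stood apart 11 were higher and 1 lower.

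Regulators of stress and metabolism downstream of or beside IIS rose more often than they fell. Of 24, 13 were called higher and 2 lower (median 0.87), and 7 and 1 held. The TOR pathway kinase *rsks-1*, which promotes translation, had 21.8, 46.2 and 51.7 TPM in the double mutant, against 3.85, 2.95, 4.21 and 6.83 TPM in *daf-16(lf)* (log2 difference 2.86 ± 0.37 SE, limma adjusted p = 4.3e-06). The AMP-activated kinase *aak-2* had 16.21, 16.96 and 24.01 TPM, against 6.22, 5.49, 5.85 and 6.97 TPM (log2 difference 1.48 ± 0.23 SE, limma adjusted p = 3.9e-05). The fat metabolism regulator *nhr-49* had 10.3, 22.2 and 27.8 TPM, against 6.12, 5.26, 6.58 and 7.92 TPM (log2 difference 1.403 ± 0.28 SE, limma adjusted p = 0.00047). These 3 separated the groups with their calls held. *xbp-1*, the transcription factor of the endoplasmic reticulum stress response, fell to 102, 107 and 115 TPM, against 518, 306, 385 and 356 TPM (log2 difference -1.83 ± 0.26 SE, limma adjusted p = 1.2e-05). The heat shock factor *hsf-1* had 4.63, 16.3 and 15.1 TPM, against 30.1, 27.6, 35.6 and 13.1 TPM, and was not called (adjusted p = 0.21). *skn-1* was called higher (log2 difference 0.84, adjusted p = 0.029) with overlapping libraries, and its call was lost after median-of-ratios scaling and quantile normalization and without any one of double mutant replicates 2 and 3 and *daf-16(lf)* replicates 1, 2 and 3 (0.53 to 0.84).

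The heat-inducible chaperones of the *hsp-16* and HSP70 families were lower in the double mutant. Small heat shock genes of the *hsp-16* family hold unfolded proteins until larger chaperones refold them. *hsp-16.41* (chromosome V, 1805178 to 1805875) had 29.2, 12.05 and 3.11 TPM in the double mutant, against 182, 144, 257 and 514 TPM in *daf-16(lf)* (log2 difference -4.38 ± 0.67 SE, limma adjusted p = 3.1e-05). *hsp-16.48*, elsewhere on chromosome V (9088131 to 9088617), had 454, 816 and 184 TPM, against 4165, 2604, 4343 and 5220 TPM (log2 difference -3.27 ± 0.84 SE, limma adjusted p = 0.0047). Every double mutant library was below every *daf-16(lf)* library, and replicate 3 of the double mutant was the lowest for both. Since the *hsp-16* genes lie in near-identical pairs, their sum is the safer measure: 5 *hsp-16* genes together had 859, 1220 and 248 TPM, against 5173, 3364, 5653 and 7428 TPM (log2 difference -3.02, not tested). *hsp-16.49* was not matched by name and is not part of this sum. *hsp-16.2* and *hsp-16.11* were called lower too (log2 differences -2.19 and -2.23), but not as shares of estimated reads nor without replicate 3 of the double mutant (-1.25 and -1.37). Of 13 small heat shock genes 4 fell and 3 rose (median -0.24, but 0.05 as shares of estimated reads and 0.43 without the 2 libraries that stood apart).

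The inducible HSP70 genes showed the same direction. *hsp-70* had 4.59, 14.9 and 4.93 TPM in the double mutant, against 39.6, 30.1, 69.8 and 51.6 TPM in *daf-16(lf)* (log2 difference -2.53 ± 0.42 SE, limma adjusted p = 8.7e-05). The near-identical *F44E5.4* and *F44E5.5* together had 16.42, 123 and 23.4 TPM, against 600, 403, 1064 and 537 TPM (log2 difference -4.03, not tested). Their own log2 differences were -4.33 (adjusted p = 0.0024) and -3.71 (adjusted p = 0.00041). The HSP90 cochaperone *sti-1* had 44.4, 69.99 and 33.2 TPM, against 155, 145, 164 and 90.4 TPM (log2 difference -1.504 ± 0.29 SE, limma adjusted p = 0.00039). None of these overlapped between groups. HSP90 itself, *hsp-90*, was called lower (log2 difference -0.99, adjusted p = 0.0042), but not after rescaling without ribosomal protein and mitochondrial genes nor as shares of estimated reads. The constitutive *hsp-1* had 391, 668 and 356 TPM, against 196, 216, 225 and 440 TPM, and was not called (adjusted p = 0.053), though it was called higher without double mutant replicate 1 (0.94) or *daf-16(lf)* replicate 4 (1.095). Over the 14 genes of the HSP70 and HSP90 list 6 rose and 5 fell (median 0.82), against 4 higher and 5 lower after median-of-ratios scaling.

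Other chaperones moved in both directions. The muscle small heat shock genes *hsp-12.1* and *hsp-25* rose: *hsp-12.1* had 155, 161 and 179 TPM in the double mutant, against 53.1, 49.4, 42.8 and 57.4 TPM in *daf-16(lf)* (log2 difference 1.69 ± 0.23 SE, limma adjusted p = 7.7e-06), and *hsp-25* 188, 307 and 407 TPM, against 78.5, 69.9, 77.5 and 110.4 TPM (log2 difference 1.78 ± 0.26 SE, limma adjusted p = 1.6e-05). *hsb-1*, which binds and restrains heat shock factor, had 22.2, 67.7 and 62.2 TPM, against 12.98, 10.4, 11.6 and 18.005 TPM (log2 difference 1.73 ± 0.32 SE, limma adjusted p = 0.00027). All 3 lay above *daf-16(lf)* in every library. Of 8 chaperonin genes 4 were called higher and 0 lower, with 1 call held, and 7 were higher without the 2 libraries that stood apart. In the mitochondria *hsp-6* had 105, 204 and 168 TPM, against 55.9, 40.6, 56.6 and 55.4 TPM (log2 difference 1.55 ± 0.25 SE, limma adjusted p = 4.8e-05). Of 14 chaperone genes of the endoplasmic reticulum 3 rose and 3 fell (median 0.45, and -0.01 after median-of-ratios scaling), against 9 and 3 without the 2 libraries that stood apart, those that fell being *enpl-1* (-2.33), *pdi-2* and *pdi-6* (-2.62 on the log2 scale). The reticulum HSP70 *hsp-4*, a usual readout of its stress response, had 7.32, 20.5 and 22.4 TPM, against 4.52, 8.15, 9.303 and 28.5 TPM, and was not called (adjusted p = 0.43).

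Genes of glycolysis and the citric acid cycle rose in most members. Of 21 glycolytic genes 16 were called higher and 0 lower (median 1.15), with 10 held. Of 21 citric acid cycle genes 15 were called higher and 0 lower (median 1.39), with 12 held. Enolase *enol-1* had 1086, 1015 and 1171 TPM in the double mutant, against 293, 303, 293 and 459 TPM in *daf-16(lf)* (log2 difference 1.72 ± 0.23 SE, limma adjusted p = 6.2e-06). Triosephosphate isomerase *tpi-1* had 324, 446 and 442 TPM, against 94.6, 98.5, 93.6 and 145 TPM (log2 difference 1.90 ± 0.26 SE, limma adjusted p = 7.5e-06). Isocitrate dehydrogenase *idha-1* had 360, 339 and 606 TPM, against 83.2, 78.6, 81.98 and 92.5 TPM (log2 difference 2.31 ± 0.22 SE, limma adjusted p = 9.1e-08). These 3 were above *daf-16(lf)* in all double mutant libraries. After median-of-ratios scaling 10 glycolytic genes were higher and 3 lower.

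Carbohydrate storage and the glyoxylate bypass were divided, with 9 of 21 genes higher and 3 lower (median 0.26), and 4 higher and 5 lower after median-of-ratios scaling (median -0.06). The bifunctional glyoxylate enzyme *icl-1*, usually raised in *daf-2* mutants with DAF-16, had 703, 358 and 243 TPM in the double mutant, against 2322, 1793, 1592 and 738 TPM in *daf-16(lf)* (log2 difference -1.91 ± 0.43 SE, limma adjusted p = 0.0017). Phosphoenolpyruvate carboxykinase *pck-2* had 443, 474 and 458 TPM, against 2209, 2083, 2040 and 931 TPM (log2 difference -1.91 ± 0.29 SE, limma adjusted p = 2.5e-05). Trehalase *tre-1* had 10.4, 20.3 and 30.02 TPM, against 193, 122.1, 192 and 36.98 TPM (log2 difference -2.55 ± 0.52 SE, limma adjusted p = 0.00073). All 3 fell without overlap, and replicate 4 of *daf-16(lf)* was the lowest of its group in each. Glycogen synthase *gsy-1* rose, with 131, 112.4 and 116 TPM against 28.9, 29.6, 29.4 and 46.3 TPM (log2 difference 1.83 ± 0.26 SE, limma adjusted p = 1.3e-05).

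Nuclear genes of the respiratory chain and ATP synthase rose in 39 of 44 members and fell in 2 (median 1.75), with 33 and 2 held. Cytochrome c1 *cyc-1* had 448, 405 and 601 TPM in the double mutant, against 80.4, 79.8, 79.9 and 114 TPM in *daf-16(lf)* (log2 difference 2.44 ± 0.21 SE, limma adjusted p = 2.0e-08). The cytochrome oxidase subunit *cox-5A* had 1362, 1182 and 1472 TPM, against 226, 264, 225 and 446 TPM (log2 difference 2.26 ± 0.23 SE, limma adjusted p = 2.6e-07). The beta subunit of ATP synthase, *atp-2*, had 1649, 1589 and 2491 TPM, against 582, 585, 607 and 880 TPM (log2 difference 1.52 ± 0.22 SE, limma adjusted p = 1.5e-05). The alpha subunit, *atp-1*, went the other way at 1890, 1650 and 2739 TPM, against 10997, 10665, 10715 and 4669 TPM (log2 difference -2.098 ± 0.29 SE, limma adjusted p = 1.1e-05), as did *nuo-3* (-2.08 on the log2 scale). Subunits of 1 complex thus differed in direction without overlap between groups. Mitochondrial ribosomal proteins rose in 26 of 71 members and fell in 0 (median 0.50), and after median-of-ratios scaling 10 were higher and 4 lower.

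Lipid genes were less uniform. Of 30 genes of lipid breakdown and storage 6 rose and 2 fell (median 0.49), and of 22 desaturase and elongase genes 5 rose and 1 fell (median 0.33). After median-of-ratios scaling the counts turned to 3 higher and 6 lower, and 2 higher and 3 lower. Without the 2 libraries that stood apart they were 11 higher and 2 lower, and 8 higher and 1 lower. Carnitine palmitoyltransferase *cpt-1*, which brings fatty acids into mitochondria, had 128, 43.4 and 120.3 TPM in the double mutant, against 14.8, 10.48, 10.4 and 17.5 TPM in *daf-16(lf)* (log2 difference 2.66 ± 0.40 SE, limma adjusted p = 2.3e-05). The lipase *atgl-1* had 14.4, 15.3 and 22.3 TPM, against 4.97, 2.89, 3.29 and 6.28 TPM (log2 difference 1.80 ± 0.38 SE, limma adjusted p = 0.00096). The fatty acid binding protein *lbp-2* had 1204, 873 and 430 TPM, against 5288, 6493, 6012 and 8281 TPM (log2 difference -3.06 ± 0.28 SE, limma adjusted p = 5.6e-08), and *lbp-3* a log2 difference of -2.95 (adjusted p = 3.8e-08). In each the libraries of the 2 groups were separate. The desaturase *fat-1* had 249, 167 and 293 TPM, against 31.2, 32.3, 31.5 and 66.4 TPM (log2 difference 2.56 ± 0.28 SE, limma adjusted p = 4.7e-07), whereas *fat-6* (11.9, 8.57 and 12.65 TPM against 4.63, 16.8, 16.6 and 36.9 TPM) overlapped and was not called.

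Ribosomal protein genes, which encode the structural parts of the ribosome, rose in most members. Of 78, 72 were called higher and 3 lower (median 2.01), with 63 and 2 held in the fits that tested them. *rpl-29* (chromosome IV, 13882225 to 13882618) had 28497, 27771 and 20770 TPM in the double mutant, against 1581, 1584, 1503 and 2589 TPM in *daf-16(lf)* (log2 difference 3.85 ± 0.19 SE, limma adjusted p = 7.0e-12). *rps-28* had 21955, 19488 and 14478 TPM, against 917, 1208, 1005 and 3063 TPM (log2 difference 3.76 ± 0.31 SE, limma adjusted p = 1.4e-08). *rpl-12*, by contrast, had 2850, 2686 and 2568 TPM, against 17920, 17735, 16623 and 17465 TPM (log2 difference -2.69 ± 0.13 SE, limma adjusted p = 5.4e-12), and *rpl-7A* 2023, 1782 and 1758 TPM, against 7577, 7826, 7110 and 7212 TPM (log2 difference -2.004 ± 0.15 SE, limma adjusted p = 3.0e-09). These stoichiometric partners of 1 particle thus separated the groups in opposite directions. *rpl-17*, a reference gene of the study, had 4880, 3676 and 3386 TPM, against 3011, 3319, 2672 and 5333 TPM, and was not called (log2 difference 0.19, adjusted p = 0.51, and -0.68 after quantile normalization). Elongation factor *eef-2* had 1653, 1311 and 1492 TPM, against 9364, 8542, 8519 and 4181 TPM (log2 difference -2.30 ± 0.24 SE, limma adjusted p = 3.0e-07), lower in every library, while *eef-1A.1* rose (1.78 on the log2 scale, adjusted p = 2.2e-05). Many of these transcripts are short. Over all genes the median log2 difference did not follow transcript length steadily: it was 0.58 under 300 bases (502 genes), 0.39 from 300 to 500, 0.29 from 500 to 1000 and from 1000 to 2000, 0.43 from 2000 to 5000 and 0.0995 above that.

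**Figure D3:**
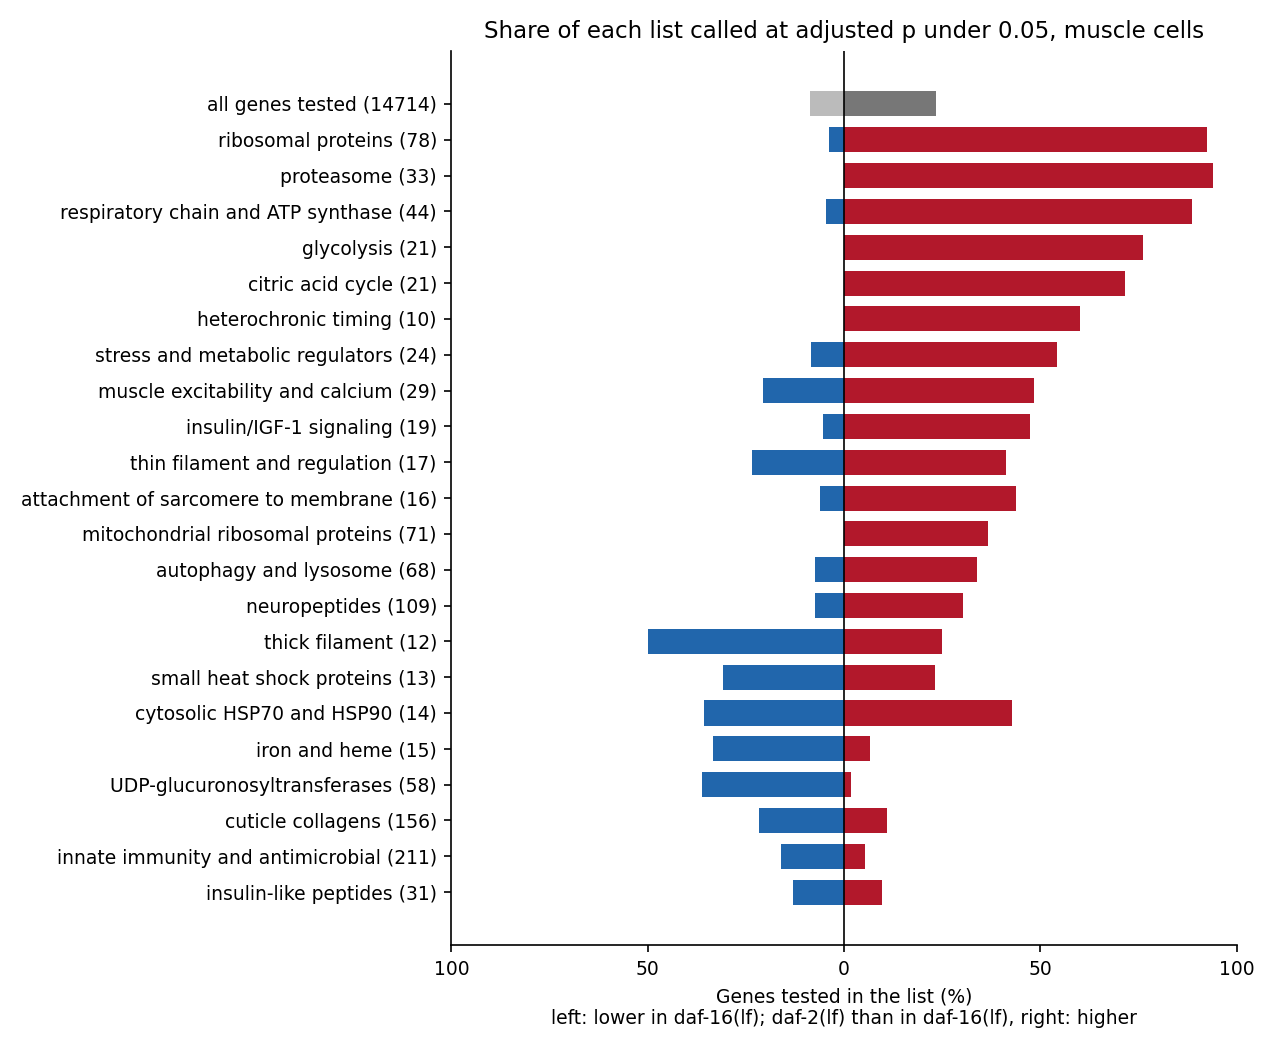
Share of the genes tested in each list (number in brackets) that was called at an adjusted p under 0.05 in muscle cells, lower in the double mutant to the left and higher to the right (%). Over all genes tested the shares were 8.62% lower and 23.5% higher, ribosomal proteins were higher in 72 of 78, the proteasome in 31 of 33, and UDP-glucuronosyltransferases lower in 21 of 58.

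Genes of protein turnover rose as well. Of 33 proteasome genes 31 were called higher and 0 lower (median 1.35), with 23 held. The lid subunit *rpn-11* had 94.1, 91.9 and 96.4 TPM in the double mutant, against 16.9, 20.5, 18.9 and 37.6 TPM in *daf-16(lf)* (log2 difference 2.03 ± 0.25 SE, limma adjusted p = 2.8e-06). Of 68 autophagy and lysosome genes 23 rose and 5 fell (median 0.71), with 17 and 5 held, and 39 were higher and 5 lower without the 2 libraries that stood apart. The autophagosome protein gene *lgg-1* (chromosome II, 6346960 to 6347719) had 863, 372 and 1019 TPM, against 74.7, 63.1, 60.5 and 128 TPM (log2 difference 3.13 ± 0.42 SE, limma adjusted p = 6.9e-06), and its relative *lgg-2* 179.8, 72.1 and 262 TPM, against 17.9, 13.96, 10.98 and 27.4 TPM (log2 difference 3.10 ± 0.38 SE, limma adjusted p = 2.6e-06). Both separated the groups, with replicate 2 of the double mutant the lowest of its group. Cathepsin L *cpl-1* had 2127, 495 and 1171 TPM, against 143, 176, 133 and 285 TPM (log2 difference 2.60 ± 0.37 SE, limma adjusted p = 1.5e-05). The receptor for cargo *sqst-1* had 34.3, 31.7 and 63.6 TPM, against 10.46, 8.92, 9.76 and 16.6 TPM (log2 difference 1.80 ± 0.30 SE, limma adjusted p = 8.8e-05). The lysosomal protease *asp-4* fell to 251, 159 and 136 TPM, against 754, 790, 630 and 567 TPM (log2 difference -1.94 ± 0.23 SE, limma adjusted p = 1.4e-06), and the calls of these 5 genes held.

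Of 20 antioxidant genes 8 rose and 0 fell (median 0.86). The cytosolic superoxide dismutase *sod-1* had 148, 155 and 143 TPM in the double mutant, against 38.2, 42.5, 39.4 and 82.6 TPM in *daf-16(lf)* (log2 difference 1.61 ± 0.29 SE, limma adjusted p = 0.00018), and the mitochondrial *sod-2* 140, 190 and 202 TPM, against 59.1, 58.3, 52.3 and 72.0 TPM (log2 difference 1.53 ± 0.23 SE, limma adjusted p = 2.1e-05). Both were higher in all double mutant libraries. Detoxification genes fell more often than they rose in TPM: of 58 UDP-glucuronosyltransferase genes 1 rose and 21 fell (median -0.75), with 0 and 10 held. The count lower was 11 without the 2 libraries that stood apart (median -0.395), 31 after median-of-ratios scaling and 44 after quantile normalization. Of 40 glutathione S-transferase genes 3 rose and 7 fell (median -0.29), though 9 were higher and 4 lower after rescaling without ribosomal protein and mitochondrial genes, and 8 higher and 3 lower without the 2 libraries that stood apart. *gst-4*, a usual readout of SKN-1, had 8.78, 20.2 and 17.2 TPM, against 176, 152, 144 and 127 TPM (log2 difference -3.27 ± 0.34 SE, limma adjusted p = 3.5e-07). *ugt-26* had 2.06, 25.9 and 12.27 TPM, against 206, 94.3, 179 and 26.97 TPM (log2 difference -3.28 ± 0.72 SE, limma adjusted p = 0.0013). The groups were separate in both, for *ugt-26* by a narrow gap between replicate 2 of the double mutant and replicate 4 of *daf-16(lf)*. Most genes of these families are known from the intestine.

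In TPM as deposited, genes known from the epidermis and from immunity were called lower more often than higher, and the libraries varied in such material. For cuticle collagens this balance turned without the 2 libraries that stood apart. Of 156 cuticle collagen genes 17 were called higher and 34 lower (median -0.64), with 14 and 8 held, and summed collagens were 1224, 1730 and 3555 TPM in the double mutant, against 1513, 5370, 4791 and 46225 TPM in *daf-16(lf)*. Hypodermal markers summed to 81.0, 118 and 195 TPM, against 81.1, 363, 233 and 3840 TPM, so replicate 4 of *daf-16(lf)* carried most of both. Without that library and replicate 1 of the double mutant, 24 collagen genes were higher and 8 lower, and as shares of estimated reads 24 were higher and 22 lower. *col-99*, a membrane collagen, had 31.9, 25.4 and 16.6 TPM, against 0.286, 0.410, 0.318 and 0.559 TPM (log2 difference 4.16 ± 0.28 SE, limma adjusted p = 7.4e-10), but it overlaps *daf-1*. Of 211 innate immunity genes 11 rose and 34 fell (median -0.26), with 7 and 22 held, against 18 and 22 without the 2 libraries that stood apart and 10 and 68 after quantile normalization. The antimicrobial peptide gene *fipr-2* had 2.81, 9.13 and 20.95 TPM, against 89.6, 168, 274 and 170 TPM (log2 difference -4.11 ± 0.54 SE, limma adjusted p = 5.1e-06), and *dod-19* 4.70, 3.44 and 10.2 TPM, against 22.4, 87.1, 90.9 and 347 TPM (log2 difference -3.78 ± 0.58 SE, limma adjusted p = 3.1e-05). The groups did not overlap in either.

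Developmental timing genes order larval fates. Of 10, 6 were called higher in the double mutant and 0 lower (median 1.18), with 5 held. *lin-14*, a nuclear protein gene of the first larval stage (chromosome X, 11465560 to 11485871), had 8.66, 20.9 and 32.4 TPM in the double mutant, against 1.74, 1.68, 1.56 and 1.17 TPM in *daf-16(lf)* (log2 difference 2.92 ± 0.33 SE, limma adjusted p = 8.3e-07). The RNA-binding protein gene *lin-28* had 7.59, 13.6 and 19.2 TPM, against 1.24, 1.37, 0.899 and 1.44 TPM (log2 difference 2.61 ± 0.30 SE, limma adjusted p = 1.2e-06). The period homolog *lin-42* had 146, 218 and 309 TPM, against 68.1, 73.1, 70.7 and 45.3 TPM (log2 difference 1.75 ± 0.30 SE, limma adjusted p = 1.0e-04). All 3 were above *daf-16(lf)* in every library. *lin-29*, which drives the adult fate, had 9.33, 20.7 and 23.7 TPM, against 2.68, 4.53, 4.55 and 10.52 TPM (log2 difference 1.56 ± 0.36 SE, limma adjusted p = 0.0020), with overlap, and *lin-41* was not called (adjusted p = 0.18).

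Neuropeptide genes were called in shares not far from those over all genes tested (23.5% higher, 8.62% lower). Of 109, 33 were higher and 8 lower (median 0.52), with 21 and 2 held. After median-of-ratios scaling 21 were higher and 22 lower, and without the 2 libraries that stood apart 45 were higher and 4 lower. *nlp-52* had 21.4, 20.04 and 29.7 TPM in the double mutant, against 0.314, 4.38, 1.29 and 1.09 TPM in *daf-16(lf)* (log2 difference 3.34 ± 0.48 SE, limma adjusted p = 1.8e-05). *nlp-46* had 7.998, 13.6 and 15.8 TPM, against 0, 0.928, 0.650 and 0 TPM (log2 difference 3.29 ± 0.49 SE, limma adjusted p = 2.5e-05). The groups were separate in both. The 10 neuronal markers summed to between 115 and 206 TPM in the double mutant, most of it *snb-1*, and to between 31.7 and 94.3 TPM in *daf-16(lf)*. Of these markers 3 were called higher, with 1 held, and 7 without the 2 libraries that stood apart. Exact permutation of their mean log2(TPM + 1) gave p = 0.229, and the part of neuronal material was not tested. Of 52 histone genes 6 rose and 6 fell (median -0.63), with 4 and 3 held. The balance turned with the scaling, to 4 higher and 13 lower after median-of-ratios scaling, 6 and 15 after quantile normalization, and 9 and 4 without the 2 libraries that stood apart (median -0.13). The linker histone *his-24* had 9.43, 14.7 and 9.18 TPM, against 73.9, 45.4, 45.02 and 106 TPM (log2 difference -2.44 ± 0.41 SE, limma adjusted p = 8.2e-05).

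Libraries with DAF-16 show which of these differences also came with *daf-2* loss and the temperature shift when DAF-16 was present. Between *daf-2(lf)* and wild-type muscle cells, 3 and 4 libraries that share no sample with those above, 4785 genes (32.5%) were called, 2888 higher and 1897 lower (median 0.05). Of the 3456 genes higher without DAF-16, 2339 (67.7%) were also higher with it, 81.0% of the higher calls there. Of the 1269 genes lower without DAF-16, 1130 (89.05%) were also lower with it, 59.6% of the lower calls there. 2 genes were called in opposite directions. Across the genes tested the log2 differences of both comparisons correlated with r = 0.876. Both comparisons divide the libraries by *daf-2* genotype, and rearing followed the same division. Ribosomal protein and mitochondrial genes together took at most 21.82% of TPM in any library with wild-type *daf-2*. They took at least 30.18% in every *daf-2(lf)* and double mutant library. Whether the library kit also followed this division is not given and was not tested. The agreement is therefore a description and not independent evidence. By list, 71 ribosomal protein genes, 39 respiratory genes, 32 proteasome genes and 7 timing genes were higher with DAF-16, and *pat-10* and *act-4* differed by -2.21 and -2.84. Neuropeptide genes were called higher in 4 and lower in 30 cases with DAF-16 (median -0.32), but the difference between the comparisons passed the test in 0 of the 109.

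**Figure D4:**
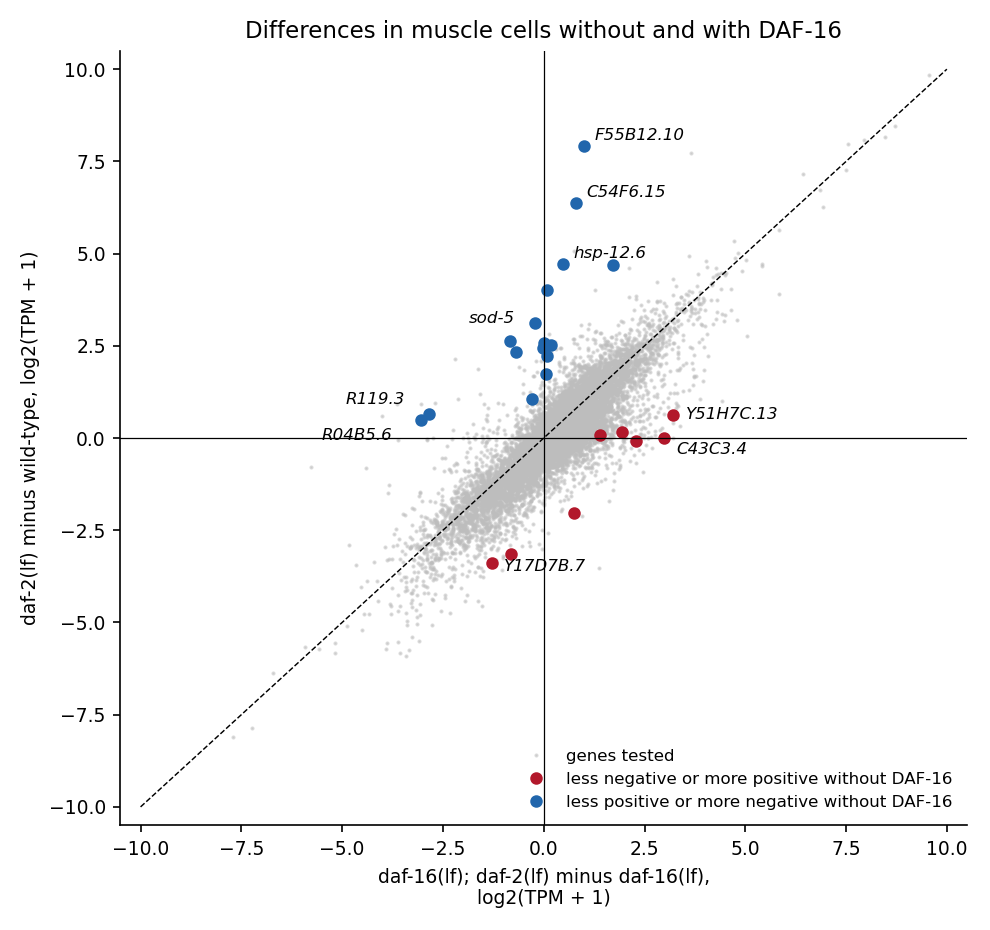
Log2 difference of each gene tested between the double mutant and *daf-16(lf)* (x axis) and between *daf-2(lf)* and wild-type (y axis) in muscle cells. Grey points are genes, the dashed line marks equal differences, and coloured points are the 24 genes whose 2 differences were not the same, 8 with a more positive difference without DAF-16 (red) and 16 with a more negative one (blue).

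The difference of these differences, tested in the same model, was called for 24 genes (0.163%), 16 with a more negative and 8 with a more positive difference without DAF-16, and 759 genes had an unadjusted p under 0.05. Of the 16, 13 were called higher with DAF-16 and were not called without it. *F55B12.10* had 0, 1.53 and 3.90 TPM in the double mutant and 0.277, 0.201, 0.189 and 0 TPM in *daf-16(lf)*, against 488, 126 and 619 TPM in *daf-2(lf)* and 0.290, 0, 0.418 and 1.08 TPM in wild-type (difference of differences -6.92, limma adjusted p = 0.00020). The small heat shock gene *hsp-12.6*, a known DAF-16 target, had 0.190, 0.188 and 1.44 TPM and 0.355, 0, 0 and 0 TPM without DAF-16, against 107, 4.65 and 28.4 TPM in *daf-2(lf)* and 0, 0, 0 and 0 TPM in wild-type (difference of differences -4.22, limma adjusted p = 0.038). Superoxide dismutase *sod-3*, a well-known DAF-16 target, had 1.05, 1.71 and 2.04 TPM in the double mutant, against 0.0908, 0.971, 0.815 and 0.417 TPM in *daf-16(lf)*, and was not called (log2 difference 0.75, adjusted p = 0.39), while *daf-2(lf)* had 221, 75.6 and 207 TPM and wild-type 2.64, 4.16, 2.65 and 5.22 TPM. Its difference of differences, -4.32, just missed the threshold (adjusted p = 0.053). Without DAF-16 these 3 genes stayed below 4 TPM in all 7 libraries.

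A few genes fell or rose without DAF-16 and did not do so with it, by the test of the difference itself. *R119.3* had 4.66, 4.69 and 4.36 TPM in the double mutant, against 40.5, 34.3, 33.5 and 49.3 TPM in *daf-16(lf)* (log2 difference -2.84 ± 0.24 SE, limma adjusted p = 2.3e-08). In the presence of DAF-16 it had 59.3, 61.3 and 69.4 TPM in *daf-2(lf)*, against 42.4, 31.9, 35.7 and 52.9 TPM in wild-type (log2 difference 0.65, difference of differences -3.49, adjusted p = 1.5e-05). *R04B5.6* (chromosome V, 10085164 to 10087363) had 0.354, 2.44 and 0.334 TPM, against 21.04, 14.3, 12.599 and 10.49 TPM (log2 difference -3.04 ± 0.45 SE, limma adjusted p = 2.4e-05), and 17.2, 23.5 and 47.4 TPM in *daf-2(lf)*, against 24.1, 20.4, 17.9 and 13.7 TPM in wild-type. The low double mutant libraries thus stood apart from the other 3 genotypes in both genes. *Y51H7C.13* showed the opposite pattern, with 3.85, 11.7 and 16.8 TPM, against 0.0635, 0.0244, 0.160 and 0.196 TPM (log2 difference 3.22 ± 0.37 SE, limma adjusted p = 1.1e-06), and 1.25, 0.745 and 1.19 TPM in *daf-2(lf)*, against 0, 0.289, 0.0989 and 1.18 TPM in wild-type. *Y17D7B.7* fell in both comparisons, to 982, 1195 and 919 TPM in the double mutant, against 2870, 3032, 2426 and 1868 TPM in *daf-16(lf)*, and to 249, 352 and 307 TPM in *daf-2(lf)*, against 3937, 3094, 2030 and 3965 TPM in wild-type (difference of differences 2.102, limma adjusted p = 0.010).

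Genes that the study named as DAF-16 targets in muscle were chosen on libraries of this series, so their directions are not independent evidence. Of 13 tested, 9 were called higher and 1 lower without DAF-16 (median 0.91), with 5 and 1 held, and 12 were higher and 1 lower with DAF-16 (median 1.94). The secreted protein gene *C54F6.5* had 11.95, 15.3 and 41.6 TPM in the double mutant, against 1.34, 0.195, 0.550 and 0.773 TPM in *daf-16(lf)* (log2 difference 3.64 ± 0.59 SE, limma adjusted p = 6.6e-05), and 1258, 301 and 897 TPM in *daf-2(lf)*, against 2.24, 1.86, 2.84 and 2.44 TPM in wild-type. Calexcitin *cex-1*, a calcium-binding protein, had 114, 212 and 215 TPM, against 94.1, 92.1, 97.8 and 85.7 TPM (log2 difference 0.90 ± 0.31 SE, limma adjusted p = 0.032), a call lost after median-of-ratios scaling and quantile normalization and without any one library except double mutant replicate 1 (0.74 to 0.93), and 599, 724 and 993 TPM in *daf-2(lf)*, against 95.5, 120.02, 124 and 101 TPM in wild-type. The difference of differences did not pass the test in either gene (adjusted p = 0.051 and 0.14). Outside these libraries, the study reported DAF-16-dependent increases of both genes in *daf-2(lf)* by RT-qPCR of intact animals. It also reported them for fluorescent reporters of both genes in body wall muscle.

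**Figure D5:**
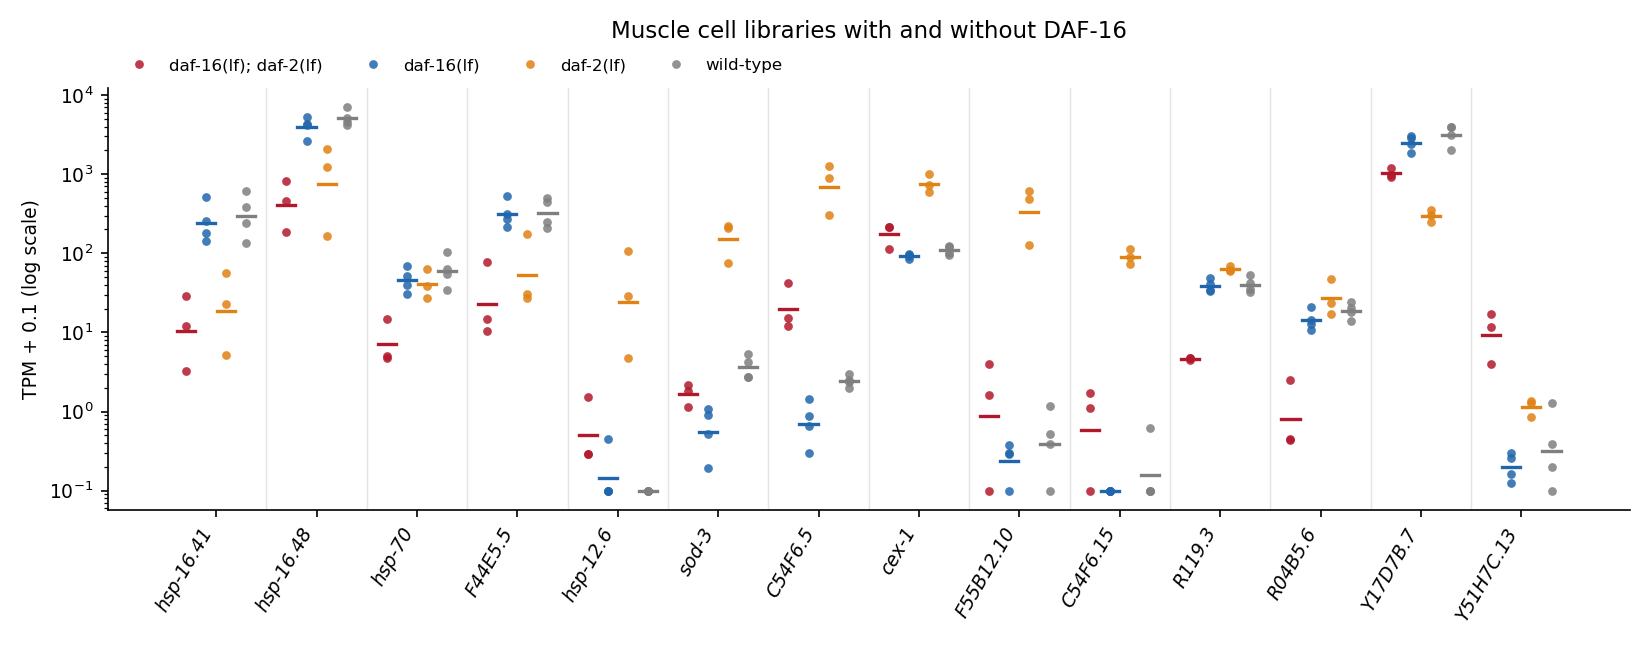
Abundance (TPM + 0.1, log scale) of 14 genes in the muscle cell libraries of the double mutant (red), *daf-16(lf)* (blue), *daf-2(lf)* (orange) and wild-type (grey), with geometric means as bars. *R119.3* and *R04B5.6* are low in the double mutant alone, while *F55B12.10* is high in *daf-2(lf)* alone and at most 3.90 TPM in the double mutant.

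The *hsp-16.41* gene fell in the presence of DAF-16 as well. It had 5.02, 55.9 and 22.52 TPM in *daf-2(lf)*, against 137, 382, 242 and 605 TPM in wild-type (log2 difference -3.89, against -4.38 without DAF-16), and the difference between the 2 did not pass the test (adjusted p = 1.0). *hsp-70* had 27.5, 63.3 and 38.5 TPM in *daf-2(lf)*, against 34.02, 104.2, 63.4 and 55.2 TPM in wild-type (log2 difference -0.54, not called), and its difference of differences was -1.99 (adjusted p = 0.42). So *hsp-70* was called lower without DAF-16 and not with it, but the difference itself did not pass the test.

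In cells sorted without the GFP gate, the same genotypes differed in more genes: 8318 (56.5%) between the double mutant and *daf-16(lf)*, 6656 higher and 1662 lower (median 0.86), from 3 and 2 libraries. Of the 4725 muscle calls 3427 (72.5%) were called in the same direction in all cells, 41.2% of the calls there, and 144 were called in opposite directions. An interaction of genotype with the gate passed the test in 2686 genes (18.3%), 670 more positive and 2016 more negative in muscle cells. Sarcomere genes were among the more positive: 12 of 17 thin filament, 7 of 12 thick filament and 8 of 16 attachment genes had a more positive difference in muscle cells, and 0 a more negative one. *pat-10* differed by -2.69 in muscle cells and by -5.14 in all cells, where it had 2056, 2270 and 2237 TPM in the double mutant, against 80676 and 74029 TPM in *daf-16(lf)*. *unc-54* differed by -1.66 in muscle cells and by -4.23 in all cells, at 638, 530 and 452 TPM in the double mutant, against 8838 and 11385 TPM in *daf-16(lf)*. In the ungated libraries these markers also measure the share of muscle cells, which was not measured otherwise. In the study's principal component analysis, samples with wild-type *daf-2*, gated and ungated, did not readily separate.

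Genes known from the intestine differed more in all cells than in muscle cells, but the share of intestinal cells was not measured. All 8 intestinal markers had a more negative difference in muscle cells than in all cells, as did 14 of 22 desaturase and elongase genes, 24 of 58 UDP-glucuronosyltransferase genes, 38 of 68 autophagy and lysosome genes and 96 of 211 immunity genes. A more positive difference was found for 2 UDP-glucuronosyltransferase and 11 immunity genes. A different mix of cells and a different level per cell cannot be told apart in these libraries. *fat-6* had 306, 292 and 238 TPM in double mutant all cells, against 32.9 and 22.01 TPM in *daf-16(lf)* all cells, a log2 difference of 3.31, and -0.44 in muscle cells. *hsp-16.41* fell in all cells too, with 2.42, 2.35 and 1.23 TPM in the double mutant, against 148 and 199 TPM in *daf-16(lf)* (log2 difference -5.87), and the difference between cell types did not pass the test (adjusted p = 0.38).

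Genes enriched by the GFP gate were defined in *daf-2(lf)*, outside the libraries compared: 950 genes (6.46%) were higher in its muscle cells than in its all cells by a log2 difference of at least 1. Of these, 451 (47.5%) were called higher and 212 (22.3%) lower in the double mutant muscle cells, with a median log2 difference of 0.86, against 0.33 over all genes. The difference was more positive in muscle cells than in all cells for 448 of them and more negative for 0. That interaction equals the effect of the gate in the double mutant minus its effect in *daf-16(lf)*. The genes were chosen by a large effect of the gate in *daf-2(lf)*, reared like the double mutant. The choice itself therefore favoured this split. It can also favour higher calls in double mutant muscle cells, since high levels in *daf-2(lf)* muscle cells entered the choice. No conclusion is drawn from the split, from these calls or from their median. Among those that rose, *R05D3.6* (chromosome III, 8350419 to 8350805) had 16917, 19167 and 18721 TPM in the double mutant, against 1227, 1094, 1014 and 838 TPM in *daf-16(lf)* (log2 difference 4.14 ± 0.17 SE, limma adjusted p = 5.9e-13), from a short transcript of 165 bases. *txt-14*, of 193 bases, had 16346, 23117 and 18620 TPM, against 1181, 1211, 1034 and 1179 TPM (log2 difference 4.06 ± 0.23 SE, limma adjusted p = 4.2e-11). Longer genes that rose included *ZK121.2* at 17.1, 33.2 and 35.4 TPM, against 0.252, 0.315, 0.321 and 0.0844 TPM (log2 difference 4.51 ± 0.26 SE, limma adjusted p = 9.2e-11). The tetraspanin *tsp-8* (chromosome X, 14726626 to 14729503) fell to 155, 151 and 102.97 TPM, against 2613, 2289, 2345 and 1139 TPM (log2 difference -3.89 ± 0.27 SE, limma adjusted p = 1.2e-09). All 4 separated the groups, with their calls held.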

How the data were processed

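mRNA-seq libraries of FACS-sorted muscle cells and of all cells were quantified by the authors with Salmon (version 1.4.0, build WBcel235 per the labels), and the deposited values are TPM per transcript beside transcript and effective lengths. The authors went on to test estimated counts with DESeq2 and compared them with STAR and HTSeq, neither of which was repeated here. The annotation release, the strand setting and the aligner's parameters are not given in the sources used here.

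TPM was summed per gene by the leading sequence name of each transcript (35749 transcripts, 21979 genes, of which 21894 matched an annotated gene and 85 did not). A gene was kept if 3 or more of the 24 libraries reached 1 TPM, which left 14714. limma 3.58.1 (R 4.3.3) was run on their log2(TPM + 1) values with 1 mean for each of 8 groups and a trend of variance on abundance, and p-values were adjusted by Benjamini and Hochberg's method across those genes. Tables were made with Python 3.11.15 and pandas 2.3.3. TPM is not a count, so no count test was made, and the log2(TPM + 1) scale understates changes of low genes. The study calls its replicates independent, and the labels do not say whether they were separate cultures. The limma p-values rest on the spread between libraries within groups, pooled over all 8 groups of the 24 libraries. No 2 libraries held identical values. Coordinates are those of WBcel235.

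Members of the comparison and the gene lists were chosen with earlier results of these data known. Named genes were the 15 highest and 15 lowest differences among called, non-overlapping genes averaging at least 10 TPM in the higher group, the 10 highest and 10 lowest among genes enriched by the GFP gate, the 10 most abundant called in each direction, up to 5 called genes in each direction of each interaction, by size among those averaging at least 10 TPM in one of its 4 groups, and list members. Not matched in the table were the list names *tni-2*, *phy-1*, *hsp-16.49*, *daf-21*, *cdc-37.1*, *cco-1*, *cco-2*, *rla-0*, *rla-1*, *rla-2*, *ubl-1*, *ram-4*, *nas-35*, *lin-4*, *let-7*, *atf-3*, *gadd-45* and *tiar-3*. Alternatives were another pseudocount, other filters, other scalings, other sets of libraries, array weights, no trend and a replicate block. The shares of estimated reads, the restriction to genes of at least 500 bases and the removal of both libraries that stood apart were chosen after seeing the data. The authors' own comparisons were not used.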

Additional observations from a re-analysis of the deposited data

Results flagged for a closer look

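Among the 194 named genes, 1 library of *daf-16(lf)* lay apart from the other 3 by Dixon's test as follows: replicate 4 in 35, replicate 1 in 3, replicate 2 in 3 and replicate 3 in 1. Chance gives about 1 in 20 groups, and the groups of 3 were not tested.

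The difference between the double mutant and *daf-16(lf)* was not the same in muscle cells and in all cells for 2686 genes. The largest more positive values in muscle cells were those of *Y57G11C.38* (5.84), *nspc-15* (5.61), *K02E11.6* (4.75), the troponin I gene *tni-3* (4.62) and *K01D12.1* (4.61), on the log2 scale. In muscle cells themselves *Y57G11C.38* (2.295) and *tni-3* (2.198) were called higher and *nspc-15* (-5.57) lower. *K02E11.6* (-0.69) and *K01D12.1* (-1.40) were not called there. The largest more negative values were those of *gfi-1* (-6.25), *irg-7* (-6.05), *Y59E9AR.1* (-6.03), *bcf-1* (-5.98) and *K06A4.7* (-5.92), genes whose differences in all cells were large and positive.

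The difference was not the same without and with DAF-16 for 24 genes. It was more positive without DAF-16 for *R04B3.3* (2.77), *Y51H7C.13* (2.59), *C14C6.12* (2.33) and *Y17D7B.7* (2.1), and more negative for *F55B12.10* (-6.92), *C54F6.15* (-5.57), *hsp-12.6* (-4.22), *C54F6.6* (-3.95) and *R04B5.6* (-3.54).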

How the results depend on the processing

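Of the 4725 genes called (3456 higher, 1269 lower), array weights gave 10227 (7828 and 2399) and a fit of only the 7 libraries compared gave 3122, with 803 lower. Genes called higher numbered 5403 after rescaling without ribosomal protein and mitochondrial genes, 5287 as shares of estimated reads and 5846 without both libraries that stood apart. Genes called lower numbered 2100 after median-of-ratios scaling and 2468 after quantile normalization. With each library left out in turn, 3501 to 6270 genes were called (2264 to 5328 higher, 942 to 1500 lower). Calls in either direction and higher calls were fewest without replicate 3 of the double mutant and most without its replicate 1. Lower calls were fewest without double mutant replicate 1 (942) and most without *daf-16(lf)* replicate 1 (1500). Replicate numbers did not pair the libraries (correlations of same-numbered deviations -0.106, -0.156 and 0.273), and a replicate block called 3457 genes. The interaction with cell type gave 1457 genes with a pseudocount of 0.1 (395 more positive, 1062 more negative), 1461 more positive after quantile normalization and 1257 more negative after median-of-ratios scaling. The interaction with DAF-16 gave 5 more positive genes after median-of-ratios scaling and 27 more negative after quantile normalization. Differences of *deb-1* turned to 0.60 (array weights), 0.72 (both libraries left out) and 1.26 (read shares), of *myo-3* to 0.90 (array weights) and to between -0.97 and 1.06 with 1 library left out, and of *rpl-17* to -0.68 (quantile normalization). The cause was not tested. TPM carries no depth, so low values have no counting interval here.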
